A study of Mus musculus with 4 samples.

Results

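Mir155, Mir146 and Mir146b are the mouse hairpins of miR-155, miR-146a and miR-146b, small RNAs that inflammatory signals induce in macrophages. They were chosen by gene symbol, as the 3 rows of the deposited table that carry these names in GENCODE M21. The table has 141239 features, of which 2022 are typed as miRNA. It covers 4 libraries of small RNA from RAW264.7, a mouse macrophage-like line that grew out of a virus-induced tumour, and from the extracellular vesicles that the cells released.

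All cells received doxycycline at 1 µg per mL for 3 days, which switched on a short hairpin RNA, and vesicles were then collected for 24 h in medium with vesicle-depleted serum. The hairpin RNA was non-silencing (shNS) or directed against Dis3l2 (shDis3l2), which encodes an exonuclease for RNAs with uridine tails. The groups were cells with shNS, cells with shDis3l2, vesicles of shNS cells and vesicles of shDis3l2 cells, with 1 library each. A sucrose gradient separated the vesicles by density, and micrococcal nuclease then digested RNA outside them. The labels do not say whether a line is a single clone, and no difference below has a replicate check.

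A microRNA is cut from a hairpin and guides Argonaute proteins to messages that pair with its seed, bases 2 to 8. Toll-like receptors and inflammatory cytokines induce miR-155 through NF-kB, and it represses brakes on signalling such as SOCS1 and the phosphatase SHIP1. NF-kB also induces miR-146a, which represses the receptor adaptors TRAF6 and IRAK1 and so closes a negative feedback loop. miR-146b comes from another chromosome, has the same seed and is known to be induced by interleukin-10 in monocytes.

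The 5p arms, the strands best known to be active, are shown because the miR-146 pair differs by few bases, which bears on how reads can be told apart. Capitals mark the seed, and all sequences are from RefSeq (GRCm38.p6).
miR-155-5p: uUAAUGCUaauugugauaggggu
miR-146a-5p: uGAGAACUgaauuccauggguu
miR-146b-5p: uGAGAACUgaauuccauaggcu
Counted from 1 at the 5′ end, miR-146a-5p and miR-146b-5p differ by G18A and U21C, with the base of miR-146a first, and share 20 of 22 bases, the first 17 of them in a row. Of 1679 mature mouse miRNAs searched, no other shared the seed GAGAACU, and none shared UAAUGCU of miR-155-5p.

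The counted features are the whole hairpins, shown because a value holds both arms. Capitals mark the 5p and 3p arms.
Mir155: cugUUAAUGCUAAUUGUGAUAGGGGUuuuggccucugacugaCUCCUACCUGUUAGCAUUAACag
Mir146: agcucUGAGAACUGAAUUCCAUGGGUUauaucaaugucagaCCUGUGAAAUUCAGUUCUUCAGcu
Mir146b: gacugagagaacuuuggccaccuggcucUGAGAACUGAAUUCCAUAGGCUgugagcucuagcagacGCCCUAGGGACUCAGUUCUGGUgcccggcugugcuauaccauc
Mir155 (65 nt) lies at chr16:84714140-84714204 on the plus strand, in an exon of the noncoding gene Mir155hg. Mir146 (65 nt) lies at chr11:43374397-43374461 on the minus strand, outside other annotated genes. Mir146b (109 nt) lies at chr19:46342762-46342870 on the plus strand, in an intron of Mfsd13a. The Mir146 and Mir146b hairpins share 21 nt in a row, so shorter reads from that stretch cannot be assigned to either. Of the other transcripts in the table, those that share at least 17 nt with a member were Mir155hg, which holds all 65 nt of Mir155, and Gm20257, which shares 18 nt with Mir146. Their counts were low: the Mir155hg transcripts had at most 3.18 counts in a library, and Gm20257 had 5.70 counts in 1 library and 0 in the others.

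Libraries held 17612856 to 19741041 estimated counts, and miRNA hairpins made up 68.3% (shNS) and 61.2% (shDis3l2) of them in cells but 19.1% and 10.5% in vesicles. Dis3l2 itself went against the labels in cells, with 41 counts under shNS and 13232 under shDis3l2, and had 1713 and 1894 counts in vesicles. Libraries are therefore named by their labels throughout, and every direction below is one between labels. Whether the counts under shDis3l2 are reads of the expressed hairpin RNA, or the labels of the cell libraries were exchanged, was not tested. With exchanged cell labels every label ratio in cells would change sign, and the vesicle to cell ratios would set unmatched libraries against each other. Of the macrophage markers, Mir142, an abundant hairpin of blood cells, took 65638 to 82945 CPM, counts per 1000000 counts on miRNA hairpins. In every library 7 or 8 of 8 marker mRNAs had counts, but these summed to only 652 and 625 in cells and to 4803 and 6613 in vesicles. Of 8 macrophage markers with at least 100 counts over both vesicle libraries, Cd14 alone was at least 2-fold apart between labels, with 1075 (shNS) and 3485 (shDis3l2) counts. The myeloid Mir223 hairpin was at 0 in each library, while F630028O10Rik, its host transcript, had 152897 and 28416 counts in cells and 19675 and 8742 in vesicles. Of markers of other cell types, those of endothelium and mesenchyme stood at 284 and 1218 CPM in cells and at 1566 and 2400 CPM in vesicles. Most of that sum was Mir126a, at 221 and 1161 CPM in cells and 1415 and 2185 CPM in vesicles (shNS, then shDis3l2). In cells Mir199a-1 went the other way, at 62.7 and 57.4 CPM, and Mir145a, Mir199a-2 and Mir214 were at 0. Erythroid and serum markers stood at 10.5 and 13.4 CPM in cells and 282 and 316 CPM in vesicles, epithelial markers at 40.3 to 157 CPM and muscle markers at 0.621 to 18.3 CPM. The neural sum of 1710 to 2207 CPM was nearly all Mir128-1, with at least 2 of 3 copies of the neuron-defining Mir124a at 0, and all 5 markers of pluripotent cells were at 0. Neither the source of these marker counts nor their part in the results was tested.

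All 3 hairpins were well above the floor in all 4 libraries, and their order was the same in each: miR-146a far above miR-146b, and miR-155 lowest. Intervals are exact 95% binomial (Clopper-Pearson) intervals and cover counting error only. It is not known whether reads were collapsed to molecules, so even that error may be understated. A count of 0 would allow up to 0.223 to 1.62 CPM, by a floor of 3 counts.

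Mir155, the hairpin that promotes macrophage activation, had 8769 counts in cells with shNS, 8518 in cells with shDis3l2, 2075 in vesicles with shNS and 1264 in vesicles with shDis3l2. These are 650 CPM (637 to 664), 756 CPM (740 to 772), 597 CPM (571 to 623) and 682 CPM (645 to 720). Both libraries labelled shDis3l2 stood above both labelled shNS on this scale. The vesicle library labelled shDis3l2 and the cell library labelled shNS did not differ beyond counting error, however. With DESeq2 size factors or all features as the scale, both cell libraries were above both vesicle libraries instead. By CPM Mir155 ranked 68 (shNS) and 66 (shDis3l2) in cells and 85 and 89 in vesicles, of 603 to 636 hairpins with a count.

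Mir146, the hairpin of the feedback miRNA, had 472394 and 400234 counts in cells and 103063 and 62231 in vesicles (shNS, then shDis3l2). It stood at 35043 CPM (34945 to 35141) and 35503 CPM (35395 to 35611) in cells. In vesicles it stood at 29637 CPM (29459 to 29816) and 33561 CPM (33302 to 33821). On this scale the cell libraries were the highest and nearly level, and the vesicle library labelled shNS was the lowest. With all features as the scale the vesicle library labelled shDis3l2 was the lowest. Mir146 thus took 2.96% to 3.55% of all miRNA counts, with ranks of 12 and 10 in cells and 11 and 9 in vesicles.

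Mir146b, its seed partner, had 58790 and 30221 counts in cells and 11916 and 5462 in vesicles (shNS, then shDis3l2). It stood at 4361 CPM (4326 to 4396) and 2681 CPM (2651 to 2711) in cells and at 3427 CPM (3365 to 3489) and 2946 CPM (2868 to 3025) in vesicles. On this scale both libraries labelled shNS were above both labelled shDis3l2, the reverse of Mir155, and the cell libraries formed the extremes. With DESeq2 size factors or all features as the scale, both cell libraries were above both vesicle libraries instead, with shNS above shDis3l2 in each. By CPM it ranked 36 (shNS) and 40 (shDis3l2) in cells and 42 and 43 in vesicles.

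**Figure D1:**
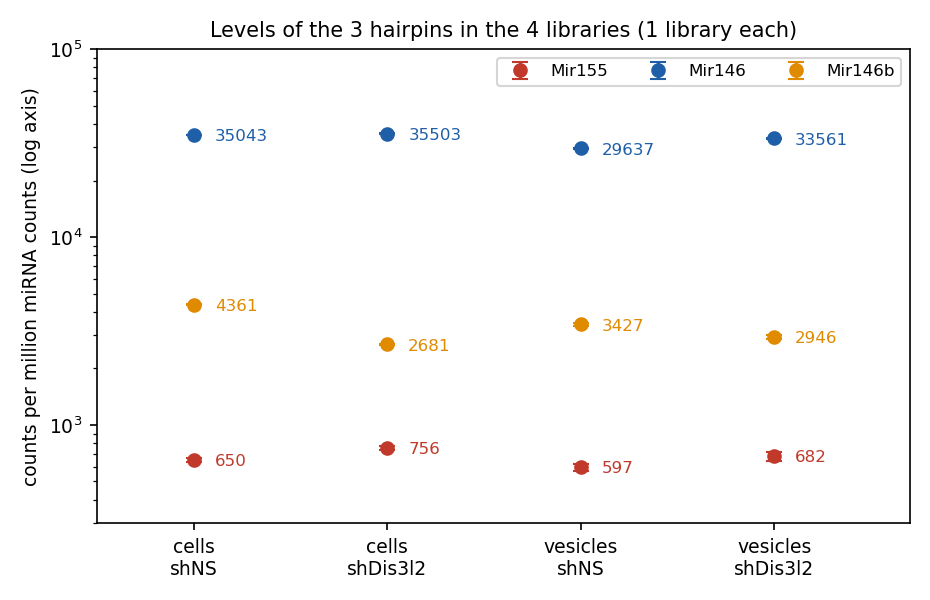
Levels of Mir155, Mir146 and Mir146b in CPM of the miRNA total on a log axis, 1 point per library, with exact 95% counting intervals that are mostly smaller than the points. Mir146 sits between 29637 and 35503, Mir146b is at 4361 and 2681 in the cell libraries, and Mir155 sits between 597 and 756.

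Mir146 spanned 0.26 on the log2 scale of CPM over the 4 libraries, the rank 4 smallest span among 139 hairpins with at least 100 counts in each library, whose median span was 1.08. Mir155 spanned 0.34 (rank 13) and Mir146b 0.70 (rank 45). This steadiness belongs to the miRNA-total scale. With DESeq2 size factors the spans were 0.95 for Mir155, 0.87 for Mir146 and 1.24 for Mir146b, against a median of 1.13. With the total of all features they were 2.69, 2.76 and 3.26, against a median of 2.57; on that scale the smaller share of miRNA in vesicles enters every hairpin's value.

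The first comparison set the cells labelled shDis3l2 against those labelled shNS. miR-146b was lower in the library labelled shDis3l2, miR-155 was slightly higher and miR-146a was level. In bulk RNA, fewer cells that make a miRNA and less of it per cell cannot be told apart. Mir146b was 1.63-fold lower (log2 -0.70, 95% interval -0.72 to -0.68), at rank 179 from the highest of the 206 hairpins whose counts in both libraries sum to at least 100. Mir155 was 1.16-fold higher (log2 0.22, 0.17 to 0.26), and Mir146 was at a log2 ratio of 0.02 (0.01 to 0.02). Hairpins were called apart from a 2-fold ratio on, in either direction, where the counting interval did not include 1. By this rule 34 of 206 hairpins were apart (16.5%; 7.28% higher and 9.22% lower with shDis3l2), and 0 of the 3 members. Relative to the median of all hairpins (0.03), a measure that no scaling changes, Mir146b was at -0.74, Mir155 at 0.18 and Mir146 at -0.02. The sign of Mir146 flipped with TMM factors, DESeq2 size factors and all features as the scale.

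The second comparison did the same in vesicles. The direction of Mir146b was the same as in cells but its size was smaller, and the other hairpins lay close to the middle of all miRNAs. Mir146b was 1.16-fold lower with the label shDis3l2 (log2 -0.22, -0.26 to -0.17). Mir155 was at 0.19 (0.09 to 0.29) and Mir146 at 0.18 (0.16 to 0.19), both below the median of all 195 hairpins, which was 0.22. Relative to that median Mir146b was at -0.43, Mir155 at -0.02 and Mir146 at -0.04. Here 46 of 195 hairpins were apart (23.6%; 17.4% higher and 6.15% lower), and again 0 of the 3. The signs of Mir155 and Mir146 depended on the scale: with TMM factors they were at -0.01 and -0.02, and with all features at -0.67 and -0.68. Mir146b was below 0 under each scale, and it passed 2-fold (-1.08) with all features, where the median of all hairpins was itself at -0.64.

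**Figure D2:**
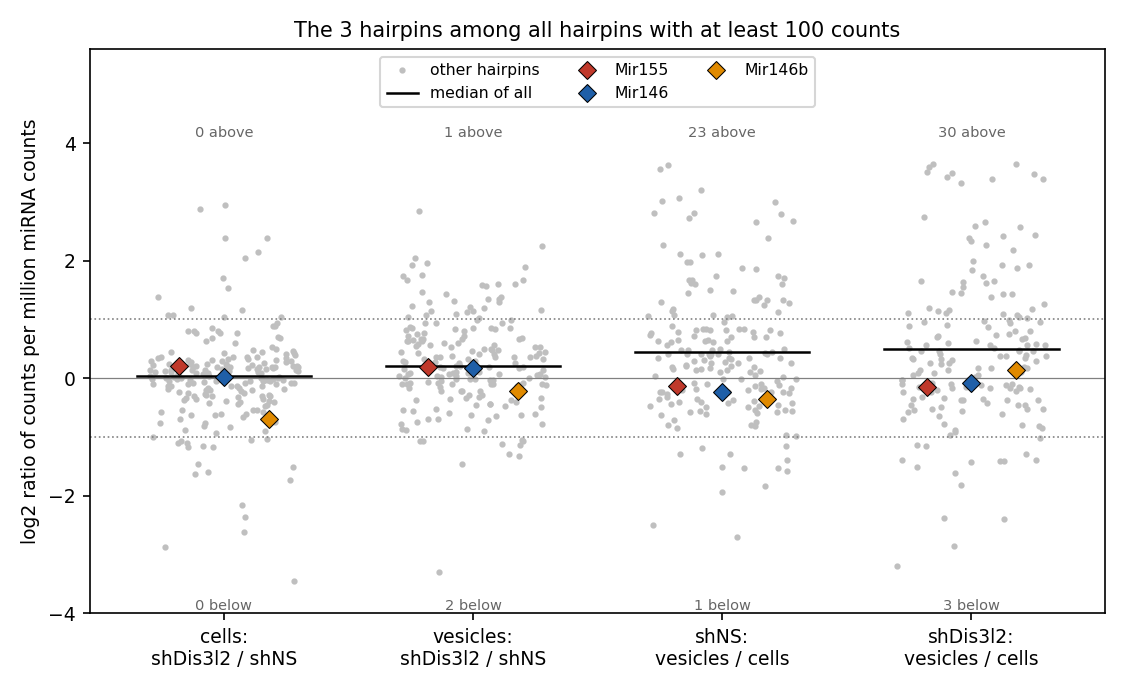
Log2 ratios of CPM for Mir155, Mir146 and Mir146b (diamonds, with 95% counting intervals) among all hairpins with at least 100 counts (grey points, spread sideways for sight), for the 4 comparisons; black lines are medians of all hairpins, dotted lines mark 2-fold, and the numbers at the edges count hairpins beyond 4 on the axis. All diamonds lie within 2-fold, with Mir146b in cells the farthest down at -0.70.

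The label ratio of vesicles minus that of cells measures whether the labels differ in the same way in both compartments. It was 0.48 for Mir146b (Wald 95% counting interval 0.43 to 0.53), 0.16 for Mir146 (0.14 to 0.18) and -0.02 for Mir155 (-0.13 to 0.09). With DESeq2 size factors it was 0.36 for Mir146b, 0.03 for Mir146 (0.02 to 0.05) and -0.15 for Mir155 (-0.26 to -0.04). The interval of Mir155 thus held 0 on the miRNA-total scale but not on that one. The Mir146b difference ranked 43 and the Mir146 difference 64 of 139 hairpins from the highest, with a median of 0.11 over all, so neither stood at the edge of the other miRNAs. With 1 library per group this difference could not be tested across samples.

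The other comparisons set vesicles against the cells that released them. All 3 hairpins were below the middle of the miRNAs in vesicles under both labels. With shNS the vesicle to cell ratio was -0.12 (log2, -0.19 to -0.06) for Mir155, -0.24 (-0.25 to -0.23) for Mir146 and -0.35 (-0.38 to -0.32) for Mir146b. The median of all 210 hairpins was 0.44, so relative to it the hairpins were at -0.56, -0.68 and -0.79.

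With shDis3l2 the ratio was -0.15 (-0.23 to -0.06) for Mir155, -0.08 (-0.09 to -0.07) for Mir146 and 0.14 (0.09 to 0.18) for Mir146b. Relative to the median of 206 hairpins (0.50) they were at -0.64, -0.58 and -0.36. Mir146b was thus the lowest of the 3 relative to the other miRNAs with shNS and the highest of the 3 with shDis3l2. By the 2-fold rule 85 of 210 hairpins were apart with shNS (40.5%; 33.8% higher and 6.67% lower in vesicles), and 0 of the 3 members. With shDis3l2 it was 96 of 206 (46.6%; 37.4% higher and 9.22% lower), and again 0 of the 3. With all features as the scale all 3 were at least 2-fold lower in vesicles, at -1.96 to -2.18 with shNS and -2.40 to -2.69 with shDis3l2, and the median of all hairpins was then at -1.40 and -2.04.

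Ratios between members within a library do not depend on any scaling of the library. Most hairpin counts of the miR-146 pair, both arms included, were on Mir146, and more so in both libraries labelled shDis3l2. Mir146b made up 11.1% (10.98 to 11.2) of the summed counts of Mir146 and Mir146b in cells with shNS, 7.02% (6.94 to 7.10) in cells with shDis3l2, 10.4% (10.2 to 10.5) in vesicles with shNS and 8.07% (7.86 to 8.28) in vesicles with shDis3l2. The intervals of the 4 libraries do not overlap, and both values with shNS were above both with shDis3l2. These intervals cover counting error only. They leave out the spread between libraries and any error in how reads of the shared stretch were divided between Mir146 and Mir146b. In counts, Mir146 exceeded Mir146b 8.04-fold and 13.2-fold in cells and 8.65-fold and 11.4-fold in vesicles (shNS, then shDis3l2). Per length of hairpin the excess was 13.5-fold, 22.2-fold, 14.5-fold and 19.1-fold, though the mature arms of both are 22 nt long. With shDis3l2 the ratio was 1.65-fold higher than with shNS in cells (Wald 95% counting interval 1.62 to 1.67) and 1.32-fold higher in vesicles (1.27 to 1.36).

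Summed over both arms of both hairpins, the miR-146 pair took 3.94% of miRNA counts in cells with shNS and 3.82% in cells with shDis3l2. In vesicles it took 3.31% and 3.65%. The sum thus differed little between the cell libraries, while the share of Mir146b in it was lower with shDis3l2.

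Mir155 and Mir146, hairpins of equal length, kept a nearly fixed proportion. There were 53.9 Mir146 counts per Mir155 count (52.7 to 55.0) in cells with shNS and 47.0 (46.0 to 48.0) in cells with shDis3l2. In vesicles there were 49.7 (47.6 to 51.9) with shNS and 49.2 (46.6 to 52.1) with shDis3l2. The cell libraries differed beyond counting error and the vesicle libraries did not: the change of the Mir155 to Mir146 ratio between labels was 1.15-fold (1.11 to 1.18) in cells and 1.01-fold (0.940 to 1.08) in vesicles. Against Mir146b, Mir155 had 6.70-fold (shNS) and 3.55-fold (shDis3l2) fewer counts in cells and 5.74-fold and 4.32-fold fewer in vesicles. Per length of hairpin it was 4.00-fold and 2.12-fold lower in cells and 3.42-fold and 2.58-fold lower in vesicles.

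**Figure D3:**
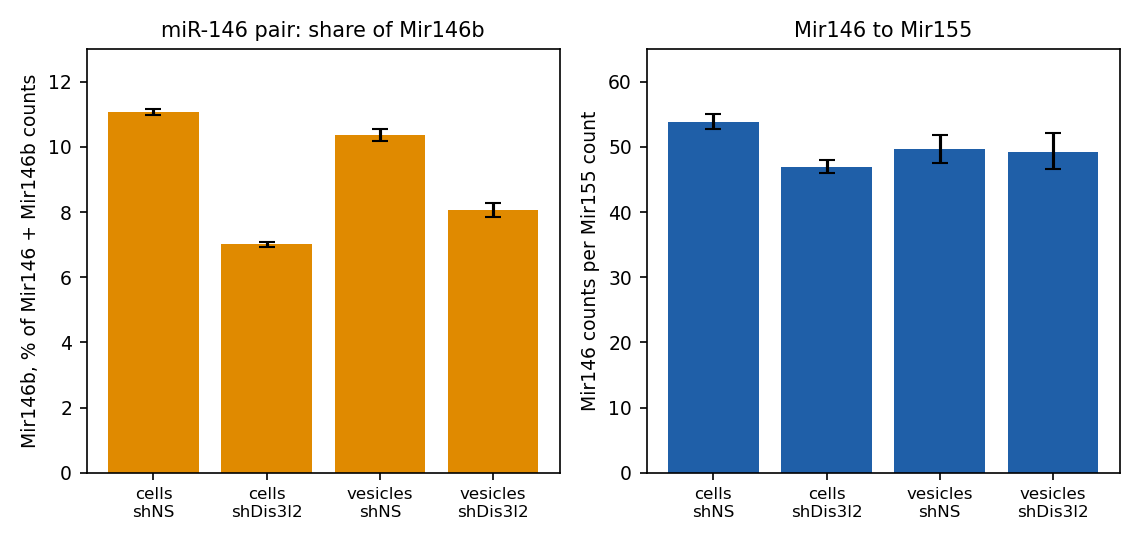
Left, Mir146b as a percent of the summed Mir146 and Mir146b counts; right, Mir146 counts per Mir155 count; 1 bar per library with exact 95% counting intervals. The share of Mir146b is 11.1% and 10.4% in the libraries labelled shNS and 7.02% and 8.07% in those labelled shDis3l2, while the right-hand ratio stays between 47.0 and 53.9.

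A fit over all 4 libraries with compartment and label as terms leaves 1 residual degree of freedom and assumes that the label acts alike in cells and vesicles. By edgeR's quasi-likelihood test with Benjamini-Hochberg adjustment, 23 of 255 hairpins (9.02%) passed for the label, at an adjusted p under 0.05, and none of the 3 members did. Mir146b was lower with shDis3l2 in both compartments, with a fitted log2 change of -0.47 (SE 0.35, adjusted p 0.584). Mir155 was at 0.19 (SE 0.40, adjusted p 0.928) and Mir146 at 0.09 (SE 0.41, adjusted p 0.973). With DESeq2, which called 59 of 255 hairpins (23.1%), Mir146b passed at -0.49 (SE 0.15, adjusted p 0.0103), while with edgeR its adjusted p was 0.413 without TMM factors (4.71% of 255 passed) and 0.834 over 517 hairpins with at least 10 counts (4.06% passed).

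For vesicles against cells the same edgeR fit gave log2 changes of -0.80 for Mir155 (SE 0.40, adjusted p 0.0930), -0.83 for Mir146 (SE 0.42, adjusted p 0.0931) and -0.77 for Mir146b (SE 0.35, adjusted p 0.0647), where 104 of 255 hairpins (40.8%) passed. These values rest on the TMM factors: without them the changes were -0.14, -0.16 and -0.11 (adjusted p 0.777, 0.381 and 0.776), where 45.9% of 255 hairpins passed. Over the 517 hairpins with at least 10 counts, where 31.5% passed, Mir146 was at -0.96 (adjusted p 0.0294). DESeq2 called all 3, at -0.78 (adjusted p 9.77e-09), -0.80 (1.42e-62) and -0.75 (3.63e-06), among 158 of 255 hairpins (62.0%). With 1 library per group, none of these p-values measures the spread between replicate libraries. The fit also assumes the same compartment change under both labels. For Mir146b the vesicle to cell ratio on the miRNA-total scale was -0.35 with shNS and 0.14 with shDis3l2.

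The hairpins with the most similar pattern were sought by the Euclidean distance of log2 CPM over the 4 libraries, each centred on its mean, among 138 others with at least 100 counts in each library. Mir155 and Mir146 had the same nearest hairpins, Mir26b (distance 0.09 and 0.10) and Mir194-1 (0.11 and 0.11), and each was the other's rank 3 neighbour (0.14). Mir26b had 216419, 198488, 46861 and 30055 counts in the order of libraries used above. Mir146b was nearer to Mir542 (0.19), Mir142 (0.32) and Mir532 (0.36) than to Mir146 (0.58, rank 19) or Mir155 (0.71, rank 36). These are distances over 4 libraries and carry no test.

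Among other miRNAs that are known to respond to Toll-like receptors and NF-kB, several differed by more than 2-fold between labels. Of 18 listed, 14 had at least 100 counts in the cell comparison: 8 were at least 2-fold lower with shDis3l2, 1 was higher, and the median was -1.39, against 0.03 over all hairpins. In vesicles 4 of 12 measured were at least 2-fold lower and 0 higher, with a median of -0.82 against 0.22. The background shares of 9.22% lower in cells and 6.15% lower in vesicles apply here too. The list was chosen with earlier results of these data known, so the counts and medians are descriptive and test nothing. It also holds hairpins that other signals induce, such as Mir34a and Mir210. The labels name doxycycline and vesicle collection but no inflammatory stimulus, and whether NF-kB activity differed between the libraries was not tested. Several of the lower hairpins share a cluster or a primary transcript and are not separate members.

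Mir9-2, a copy of the NF-kB-induced miR-9, had 4902 and 373 counts in cells (log2 -3.46) and 725 and 39 in vesicles (-3.29). Mir21a, an abundant inflammation-induced hairpin, was at -1.18 and -1.07, and Mir125a at -1.74 and -1.14. Mir132 and Mir212, which share a primary transcript, were at -2.62 and -2.87 in cells, and Mir132 was at -0.78 in vesicles. Mir34a, a p53 target, was at -2.37 in cells and -0.86 in vesicles. Of the neighbours of Mir125a in the same cluster, Mir99b was at -1.63 and -0.89 and Mirlet7e at -1.60 and -1.05. Mir187, which interleukin-10 induces, was the higher hairpin in cells (2.05, from 207 and 717 counts).

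Mir125b-2 (0.49 and 0.15), Mir210, which hypoxia induces (-0.63 and -0.78), and Mir221 (-0.40 and -0.13) stayed within 2-fold, as Mir155, Mir146 and Mir146b did. In cells the ratio of Mir146b (-0.70) was thus of about the size of that of Mir210, while Mir155 and Mir146 were nearer to 0 than either.

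**Figure D4:**
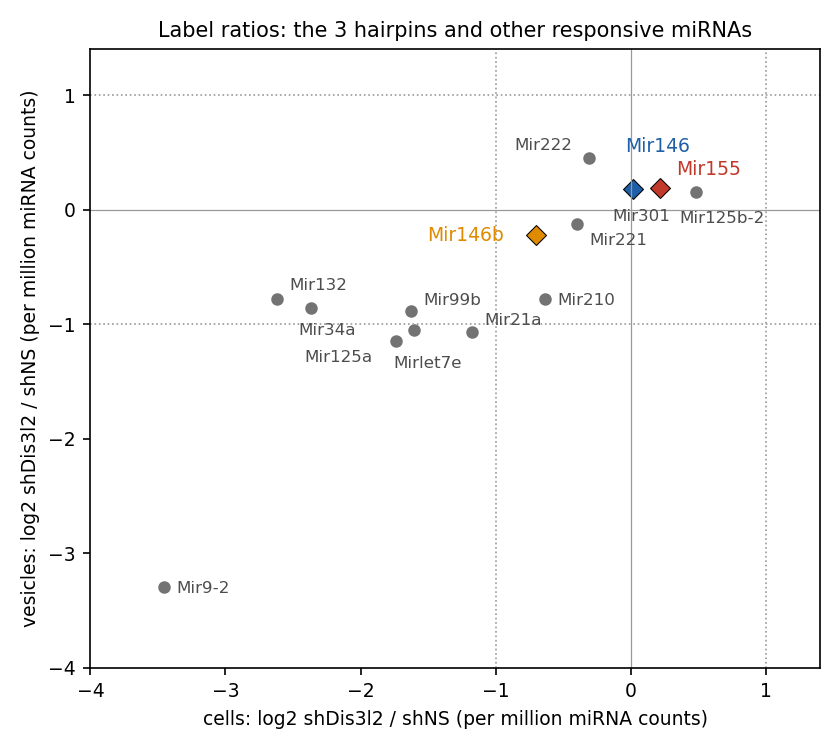
Label ratios (log2 of shDis3l2 over shNS, from CPM) in cells on the horizontal and in vesicles on the vertical axis for Mir155, Mir146 and Mir146b (diamonds) and 12 other responsive hairpins measured in both (grey; Mir301 lies under Mir146), with dotted lines at 2-fold. Mir155 and Mir146 sit near the origin and Mir146b to the lower left at -0.70 and -0.22, while Mir9-2 lies at -3.46 and -3.29.

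Known targets were seen only as fragments of mRNA in these small-RNA libraries, scaled here to the counts of all features. Of 8 targets of miR-155, 3 had at least 100 counts in the cell comparison and 7 in vesicles, and 0 were 2-fold apart between labels, against 18.8% of 3277 genes in cells and 12.8% of 8293 in vesicles. In cells, Tab2, which encodes an adaptor of the kinase TAK1, had 549 and 498 counts (shNS, then shDis3l2; log2 -0.04, -0.22 to 0.14). Jarid2, a partner of the Polycomb repressor, had 79 and 79 (0.10, -0.37 to 0.57), and Cebpb, a transcription factor of myeloid genes, 72 and 36 (-0.89, -1.52 to -0.30). The interval excluded 0 for Cebpb alone of these 3. In vesicles, Cebpb had 184 and 183 counts (0.04, -0.26 to 0.34) and Jarid2 185 and 189 (0.08, -0.22 to 0.38). There Tab2 had 385 and 556 counts (0.58, 0.39 to 0.77), Spi1, which encodes the myeloid factor PU.1, 133 and 189 (0.55, 0.23 to 0.89), and Bach1, a haem-regulated repressor, 314 and 389 (0.36, 0.14 to 0.57). Inpp5d, which encodes SHIP1 and was picked after its values were seen, had 131 and 156 (0.30, -0.05 to 0.64). The median of the 7 was 0.34, against 0.31 over all genes.

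Of 8 targets of miR-146, 1 was measured in cells (Notch1, at 0.18) and 7 in vesicles, with 0 apart and a median of 0.31, the same as over all genes. In vesicles, Traf6 had 154 and 271 counts (0.86, 0.57 to 1.16), Irak1 491 and 616 (0.37, 0.20 to 0.55) and Irak2 127 and 150 (0.29, -0.06 to 0.64). All 3 encode links between Toll-like receptors and NF-kB, and all 3 had more counts with shDis3l2, but within 2-fold. Of these, only Traf6 had an interval wholly above the median of all genes (0.31), and those of Irak1 and Irak2 included it. Notch1, which encodes a receptor, went the other way, with 17831 and 12809 counts (-0.43, -0.46 to -0.40). In cells Notch1 had only 66 and 70 counts. Its vesicle to cell ratios were thus 8.18 (shNS) and 7.57 (shDis3l2), against medians of 2.17 and 2.41 over all genes. Whether these vesicle reads are fragments of its mRNA was not tested. Of 14 further genes of this pathway, 6 were measured in cells with 0 apart, and 13 in vesicles, where Ikbkb, a kinase that releases NF-kB, was 2.41-fold higher with shDis3l2 (493 and 1150 counts) and 0 were lower. Nfkbia, the inhibitor of NF-kB, had 113 and 110 counts in cells (0.06) and 309 and 372 in vesicles (0.31). Between vesicles and cells 88.2% of 6698 genes were apart with shNS and 90.0% of 7228 with shDis3l2, and the counts of listed mRNAs are to be read against these shares. With shNS 5 of 6 measured targets of miR-155, 6 of 6 of miR-146 and 11 of 12 pathway genes were higher in vesicles, and with shDis3l2 5 of 7, 6 of 6 and 11 of 12.

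**Figure D5:**
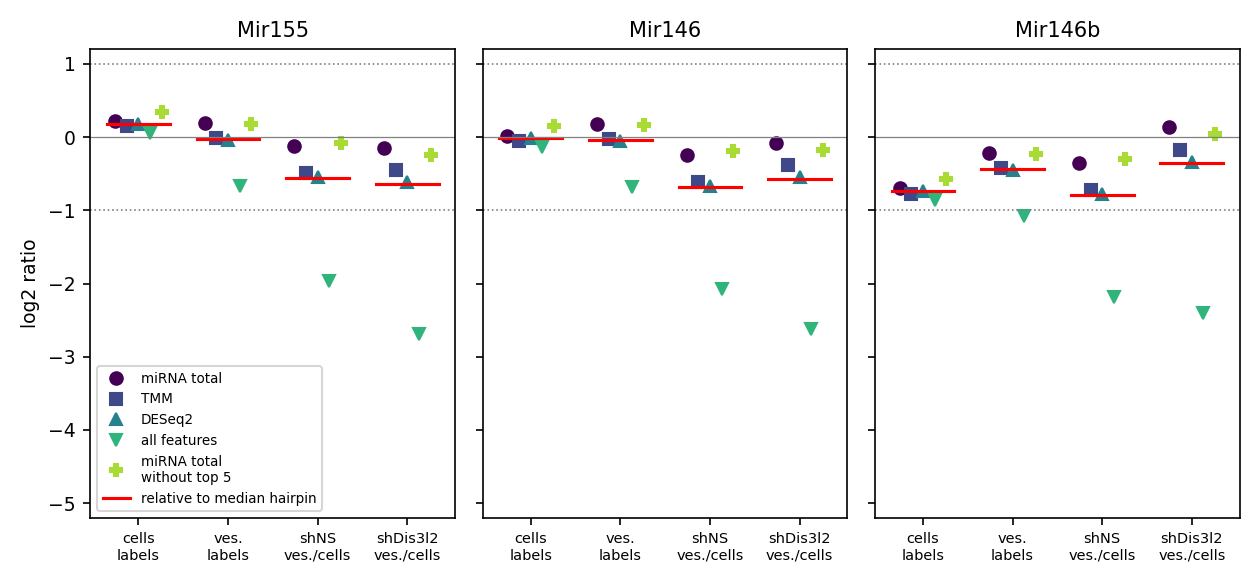
Log2 ratios of Mir155, Mir146 and Mir146b in the 4 comparisons (the label ratio in cells and in vesicles, then vesicles over cells for each label) under 5 scales (markers), with the value relative to the median hairpin as a red line and dotted lines at 2-fold. Mir146b stays below 0 for the labels in both compartments under all 5 scales, whereas vesicle to cell ratios run from 0.14 to -2.69 with the choice of scale.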

How the data were processed

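Libraries were prepared with a QIAseq miRNA kit and sequenced to 50 nt, 1 per group, per the labels' protocols; use of its molecular identifiers is not stated there. The authors deposited 1 table of estimated counts for each transcript; cutadapt, Salmon and Novoalign, and the builds GRCm38 and mm10, are named in the submitters' processing notes, and versions are not given in the sources used here. Features were named from GENCODE M21 (GRCm38); sequences came from RefSeq.

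Counts were rounded. CPM (counts per 1000000) refers to the total over the 2022 miRNA-typed hairpins, 1854287 to 13480443 counts per library, and mRNAs were summed by gene and scaled to all features. Ratios used a pseudocount of 0.5, features with at least 100 counts over the libraries compared, and exact conditional 95% intervals (scipy 1.17.1). The additive fits used edgeR 4.0.16 and DESeq2 1.42.0 on hairpins with at least 100 counts over 4 libraries. Ratio calls were run on simulated Poisson counts, which hold no spread between libraries. Fits were run on simulated counts with a set spread and no compartment difference. Neither check covers the spread of real libraries. Alternatives were other scales (TMM, DESeq2, all features, without the 5 most abundant), count minimums of 10 and 1000, a pseudocount of 5, thinning, added host transcripts and length.

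The members and lists were chosen with earlier results of these data known. Named genes are the members, their hosts, the 3 nearest patterns each, Dis3l2, and of each list up to 5 measured genes by count plus those apart. Inpp5d was added outside this rule.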

Additional observations from a re-analysis of the deposited data

Results flagged for a closer look

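The vesicle to cell ratio of Mir146b pointed in opposite directions under the labels: its log2 value was -0.35 with shNS and 0.14 with shDis3l2. The difference was not tested across samples, because each group is 1 library. With TMM factors the ratio with shDis3l2 was -0.17, and relative to the median of all hairpins the ratios were -0.79 and -0.36, so the opposite signs hold for the miRNA total and not for those scales.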

How the results depend on the processing

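The labels carry no replicate numbers to use as a block; the additive fit compares labels within compartments and compartments within labels. Leaving out a library would leave that fit no residual degree of freedom, and was not run. Of the main values recomputed under alternatives, 96 kept their direction and their side of the threshold, 13 changed sign, 11 passed a threshold they had not passed, and 9 counts moved by over 1.5 times. Of the sign changes, all but that of the additive fit came with another scale, which shifts all ratios of a comparison alike. With TMM factors, DESeq2 size factors and all features, Mir146 was at -0.0520, -0.0150 and -0.14 between labels in cells and at -0.0202, -0.0545 and -0.68 in vesicles, Mir155 at -0.0073, -0.0415 and -0.67 in vesicles, and Mir146b at -0.17, -0.33 and -2.40 for vesicles over cells with shDis3l2. With all features Mir146b was at -1.08 between labels in vesicles, the vesicle to cell ratios with shNS were -1.96 (Mir155), -2.08 (Mir146) and -2.18 (Mir146b), and those with shDis3l2 were -2.69 (Mir155) and -2.62 (Mir146). In the additive fit DESeq2 gave -0.78, -0.80 and -0.75 for the compartment and -0.49 for Mir146b between labels; over hairpins with at least 10 counts Mir146 was at -0.96 for the compartment and -0.0304 for the label. The cause of these differences between tools was not tested.

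Counts of hairpins apart moved with the number tested: with a minimum of 10 counts they were 79 (cells), 110 (vesicles), 196 (shNS) and 220 (shDis3l2), and with 1000 counts 20, 45 and 49 for the last 3. With all features they were 164 (shNS) and 178 (shDis3l2). Higher against lower, the split between labels in cells was 15 to 19 and became 18 to 13 without the 5 most abundant hairpins and 10 to 22 with all features. In vesicles it was 34 to 12 and became 25 to 16 with TMM, 23 to 18 with DESeq2 and 7 to 50 with all features. For vesicles over cells 71 to 14 (shNS) became 56 to 23, 55 to 26 and 29 to 135, and 77 to 19 (shDis3l2) became 66 to 27, 61 to 33 and 33 to 145, in the same order. Depth limits Mir155 most, with 1264 counts in 1 library.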
